A study of Mus musculus with 19 samples.

Results

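The genes described here are 8 core components of the PI3K and AKT pathway in 19 mouse RNA-seq libraries. They were chosen by name, as the rows of the expression table whose Ensembl identifiers map to the symbols Pik3ca, Pik3cb, Pik3cd, Pik3r1, Pik3r3, Akt1, Akt2 and Inpp4b. All 8 were found among the 46078 genes of the table. The study asked how a mutant p53 in stromal fibroblasts bears on mammary tumors driven by the receptor tyrosine kinase ERBB2, which signals through PI3K. Libraries came from 3 mammary glands of wild type mice (MG-WT), 4 glands (MG-N) and 4 tumors (T-N) of MMTV-neu mice with wild type p53 in their fibroblasts, and 4 glands (MG-NP) and 4 tumors (T-NP) of MMTV-neu;p53wm-R172H/+;Fsp-Cre mice. MMTV-neu expresses ERBB2 from a mammary tumor virus promoter in mammary epithelium, and Fsp-Cre places Cre recombinase under the promoter of a fibroblast gene, so that the conditional p53wm-R172H allele makes the R172H protein in cells with Cre. The MG-N group mixed genotypes: replicate 1 was MMTV-neu;Fsp-Cre, while replicates 2, 3 and 4 were MMTV-neu;p53wm-R172H/+ without Cre. All 4 T-N tumors were MMTV-neu;Fsp-Cre. The mice were females of a mixed background, the glands of the MMTV-neu groups came from tumor-bearing mice and held no malignant lesion, and ages in numbers were not given in the sources used here. Of the T-NP libraries, replicates 1 and 2 carried the same animal number in their names, so they may be separate tumors of 1 mouse, while the numbers in the other names differ.

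Class I PI3K is a lipid kinase built from a catalytic subunit and a regulatory subunit. Receptors recruit the regulatory subunit, the catalytic subunit then phosphorylates a membrane inositol lipid, and the product brings the kinase AKT to the membrane where it is activated. AKT promotes growth, survival and glucose uptake, and lipid phosphatases end the signal. In the mammary gland the pathway carries signals of insulin, growth factors and ERBB2, and catalytic and phosphatase genes of it are altered in breast cancers. RNA levels do not show the activity of any of these enzymes, and in whole tissue fewer cells of a type cannot be told apart from less RNA per cell.

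The libraries held 20899152 to 27262440 reads on genes, except the MG-WT libraries with 54677315 to 62645459. The lowest count of a member in any library was 162 reads (Pik3cd in T-NP replicate 1), for which counting error alone is 7.86%. Erbb2, the mouse gene of the receptor that the transgene expresses, ranged from 73426 to 155042 normalized counts in the tumors. It was 3825.8 to 4210.1 in MG-WT, 14717.6, 1844.6, 9610 and 2046.4 in MG-N replicates 1 to 4 and 9968.9, 10786.8, 3984.8 and 3965.6 in MG-NP, so that 2 MG-N glands lay below every wild type gland and 2 MG-NP glands lay within their range. In 4 of the 8 MMTV-neu glands the level of this gene thus did not exceed the highest wild type value. The count does not tell reads of the transgene from reads of the animal's own Erbb2, so it does not measure the transgene alone. Reads of the wild type and mutant Trp53 alleles are summed in 1 gene count, so Trp53 does not check the R172H label. Its means were 1916 ± 584 normalized counts in the 3 MG-WT glands (SD), 687 ± 57.0 in MG-N, 794 ± 312 in MG-NP, 1061 ± 363 in T-N and 698 ± 141 in T-NP (SD, n = 4 each). The makeup of the tissues differed strongly, judged by marker lists whose score is the mean log2(normalized count + 1) over the list. The white adipocyte score of 9 genes was 5.11 to 6.33 in MG-WT against 13.47 to 15.04 in the other glands, and Adipoq, which encodes the fat cell hormone adiponectin, stood at 1.71 to 23.4 normalized counts in MG-WT against 14468 to 47029. The MG-WT libraries thus held little RNA of fat cells, and their luminal score (12.74 to 13.02) and basal score (12.59 to 12.85) lay above those of the other glands (9.18 to 10.98 and 9.52 to 11.06). Every comparison with MG-WT therefore also compares tissues of different makeup. In tumors the white adipocyte score was 3.06 to 9.05. The leukocyte score of 10 genes was lower in every tumor than in every gland of its own comparison. Fits of tumors against their glands with this score as a covariate therefore cannot tell leukocyte content from group. Skeletal muscle genes took 8.6% of the reads in MG-NP replicate 2, 4.73% in replicate 4 and 1.76% in replicate 1, and at most 0.111% in every library of the other groups. The skeletal muscle score of 12 genes was 9.22 to 17.30 in MG-NP, 2.98 to 3.17 in MG-WT and 3.11 to 8.62 in T-NP. Fits of MG-NP against MG-WT or T-NP with this score as a covariate therefore cannot tell muscle from group.

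The largest differences among the 8 genes, those of Inpp4b and Pik3cd, lay between glands and tumors. Between MMTV-neu glands and tumors the AKT kinases went in opposite directions. Akt2 differed most between MG-N and MG-WT (1.21 on the log2 scale), and tumors were near MG-WT for it (0.04). In tumors of both genotypes Akt1 was higher and Akt2, Pik3cd and Inpp4b were lower than in the glands compared with them. All T-N tumors carried Fsp-Cre, while all MG-N glands but replicate 1 had p53wm-R172H/+ without Cre. In T-N against MG-N, tissue thus cannot be fully told apart from these alleles. In T-N against MG-N, 1 of the 8 genes was higher and 3 were lower at an adjusted p under 0.05 (limma, Benjamini-Hochberg over all genes tested), where 23.5% of all 17950 genes tested were higher and 27.8% lower. In T-NP against MG-NP, 4 were higher and 3 lower, where 26.2% of 17880 genes were higher and 29.3% lower. All 8 genes passed the filter on low counts in each comparison. The median log2 difference of the 8 was -0.32 in T-N and 0.09 in T-NP, beside -0.05 and -0.07 over all genes tested. Tumor and gland values lay fully apart for 4 of the 8 genes in T-N and for 6 of 8 in T-NP, as they did for 49.2% and 52.6% of all genes. With a change of at least 2-fold asked as well, 4 members were called in T-N, where 12.8% of all genes rose and 22.3% fell by this rule, and 5 in T-NP (14.7% and 24%). Counts of called members were thus near the share of all genes in T-N (51.3% in either direction) and above it in T-NP (55.5%), and with 8 genes no more can be read from them.

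**Figure D1:**
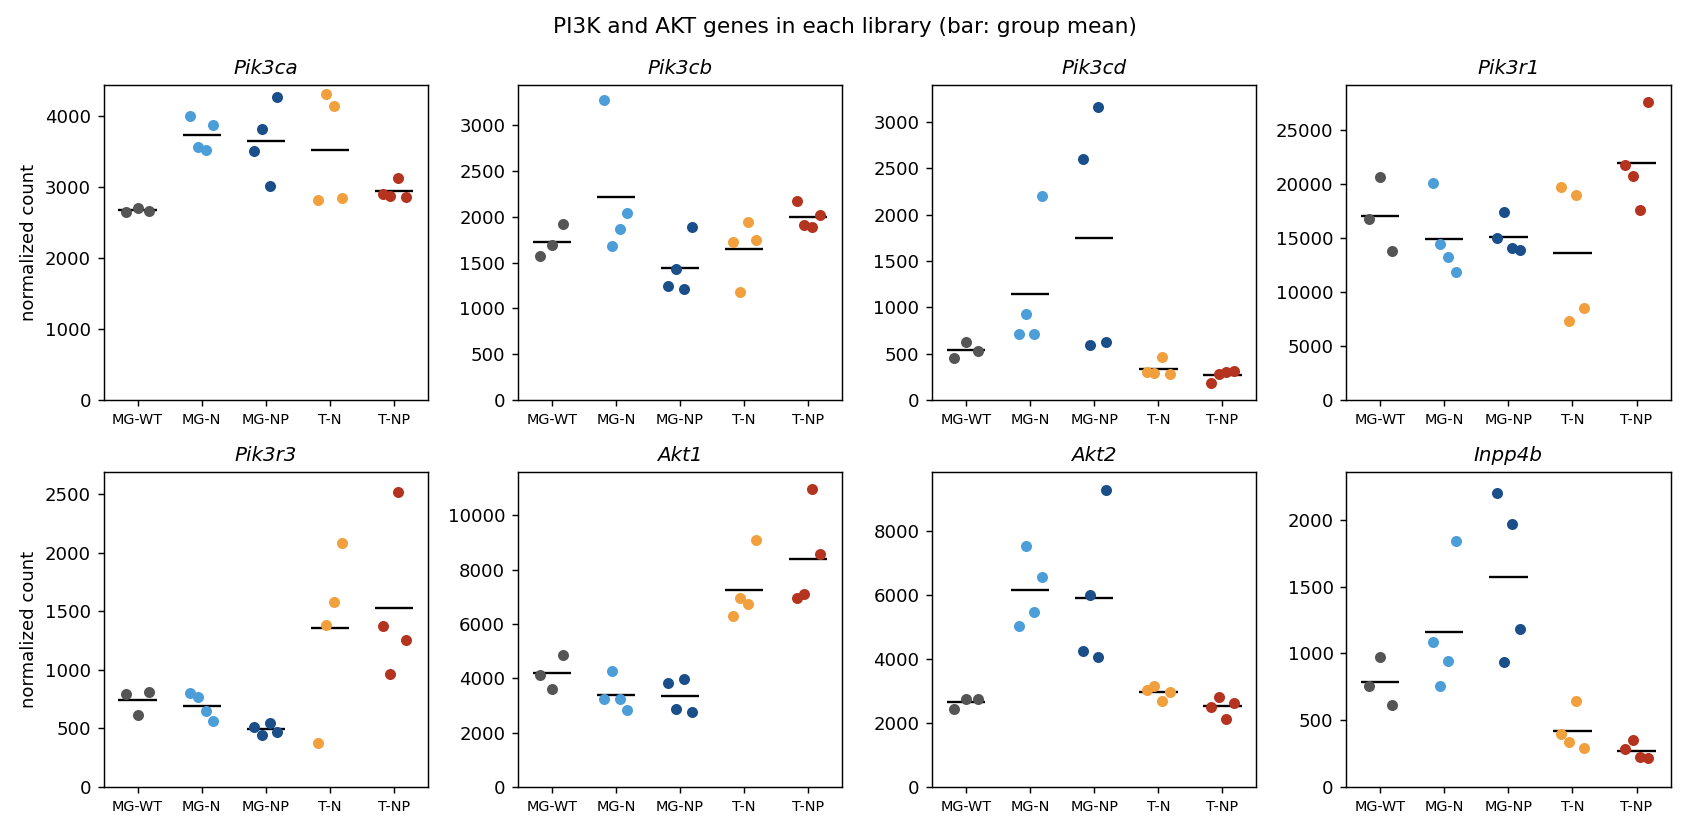
Normalized counts of the 8 genes (y axis, linear, from 0) in the 5 groups (x axis), with 1 point per library and a bar at each group mean. The lowest Akt1 value of a tumor, 6281, is above the highest of a gland, 4859, and Pik3cd and Inpp4b are widely spread among the glands of MMTV-neu mice and low in tumors.

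Levels of different genes were compared as normalized counts per kilobase of merged exon. Pik3r1 had the highest level of the 8 in the glands, with 1695 ± 340 per kb in the 3 MG-WT glands (SD), 1483 ± 356 in MG-N and 1501 ± 161 for MG-NP (SD, n = 4 each). Its range there was separate from that of the next gene, which was Akt1 in MG-WT and Akt2 in the other glands. In tumors Pik3r1 and Akt1 led together: Akt1 stood at 1772 ± 306 per kb in T-N and 2050 ± 453 in T-NP, and Pik3r1 at 1355 ± 659 and 2179 ± 412 (SD, n = 4 each), with overlapping ranges. Pik3ca, Pik3cb and Akt2 were in the middle, with group means from 200.75 (Pik3cb in MG-NP) to 864 (Akt2 in MG-N). Pik3cd and Inpp4b were the lowest in MG-WT and in tumors. Their ranges overlapped in MG-WT and T-N, although Pik3cd was the higher of the pair in each library of these groups. In T-NP their ranges were separate, at 42.9 ± 9.61 for Pik3cd and 20.6 ± 4.97 per kb for Inpp4b (SD, n = 4). In MG-N neighbours from the fourth to the eighth place overlapped, so their order there is not settled.

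Pik3ca encodes p110α, the catalytic subunit that is most often mutated in breast cancer, and lies at chr3:32397671-32468486 (+ strand, GRCm38; ENSMUSG00000027665). Its level varied least among the catalytic genes, from 2646 to 2703 normalized counts in MG-WT, 3510.4 to 3993 in MG-N and 3009 to 4269 in MG-NP. Tumors covered much the same span, with 2813, 4299.9, 4134 and 2839.5 in T-N replicates 1 to 4 and 2860.4 to 3119.9 in T-NP. Both sets of MMTV-neu glands lay above MG-WT without overlap. The log2 difference was 0.48 ± 0.09 in MG-N (SE; limma adjusted p = 0.00265), while MG-NP glands were at 0.44 ± 0.14 (adjusted p = 0.0377). The MG-N call held without each of the 7 libraries in turn. The MG-NP call held only without MG-NP replicate 3 and was lost without each of the other 6 libraries (adjusted p from 0.0139 to 0.114 over these fits). Its adjusted p was under 0.05 in 9 of the 13 other alternatives. With the skeletal muscle score as a covariate its estimate turned to -0.16 (adjusted p = 0.732, the highest over the alternatives, which ranged from 0.0166). Between tumors and glands limma called no difference: the log2 difference was -0.11 in T-N (95% interval -0.50 to 0.28) and -0.30 in T-NP (-0.60 to -0.01; adjusted p = 0.0759). DESeq2 on the recovered reads called Pik3ca lower in T-NP (-0.30, adjusted p = 0.0449) and edgeR did not (-0.30, adjusted p = 0.0711), and the estimate was -0.01 (adjusted p = 0.976) with the muscle score as a covariate. Without MG-NP replicate 3 the T-NP estimate was -0.39 and passed (adjusted p = 0.0256, the lowest of the 8 fits leaving out 1 library, which reached 0.157).

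Pik3cb encodes p110β, the widely expressed catalytic subunit that also answers to G protein-coupled receptors, and lies at chr9:99036654-99140621 (- strand; ENSMUSG00000032462). It ranged from 1568.5 to 1923 normalized counts in MG-WT and from 1678 to 3271 in MG-N, where replicate 1, the gland of the genotype with Fsp-Cre, was the highest. It ranged from 1215 to 1887 in MG-NP, from 1183 to 1939.9 in T-N and from 1885 to 2167 in T-NP. T-NP tumors exceeded MG-NP glands by 0.49 ± 0.16 on the log2 scale (SE; limma adjusted p = 0.0269), although the highest gland (1887) reached the lowest tumor (1885). That call held in 2 of the 8 fits that left out 1 library, with adjusted p from 0.00368 to 0.0697. It was lost without MG-NP replicates 1, 2 or 3 or T-NP replicates 1, 2 or 4, and with T-NP replicates 1 and 2 averaged as 1 sample (0.48, adjusted p = 0.0576, within 0.00235 to 0.623 over the alternatives). It was lost as well with the muscle score (0.68, adjusted p = 0.0923) or the leukocyte score (0.16, adjusted p = 0.623) as a covariate. No difference was called in T-N against MG-N, where the estimate was -0.40 ± 0.24 (SE; adjusted p = 0.188). The difference between these differences was 0.89 ± 0.30 with an unadjusted p of 0.00887 and an adjusted p of 0.518 in the limma interaction fit, so a dependence on genotype was not established.

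Pik3cd encodes p110δ, the catalytic subunit that is most abundant in leukocytes, and lies at chr4:149649168-149702571 (- strand; ENSMUSG00000039936). Its normalized counts in replicate order were 453, 629.7 and 527 in MG-WT, 716, 926, 718 and 2207 in MG-N, while MG-NP glands had 2598, 594, 3162 and 631. Tumors had 299, 296, 465 and 282 in T-N and 182, 277, 300.04 and 316 in T-NP. MG-N replicate 4 and MG-NP replicates 1 and 3 stood far above the other glands, and every tumor lay below every gland of its own comparison. The log2 difference was -1.62 ± 0.37 in T-N against MG-N (SE; limma adjusted p = 0.00617) and -2.33 ± 0.57 in T-NP against MG-NP (adjusted p = 0.00791). Both calls held without each of the 8 libraries in turn. Against MG-WT the same gene was 0.93 ± 0.38 in MG-N (adjusted p = 0.0637), while MG-NP glands were at 1.32 ± 0.64 (adjusted p = 0.128). Neither passed in limma, although all 4 MG-N values were above all 3 of MG-WT. DESeq2 called both (1.08 and adjusted p = 0.0164 in MG-N, 1.70 and 0.0139 in MG-NP) and edgeR neither (1.07 and adjusted p = 0.0501, 1.71 and 0.0581). In limma MG-NP was also called with all 5 groups in a single fit (adjusted p = 0.0453). A limma fit of MG-NP against MG-WT that included the muscle score gave 4.74 (adjusted p = 0.0297). Muscle scores of these groups did not overlap, so that fit cannot tell muscle from group and is not counted as a further call. The MG-N and MG-NP estimates were each 0.27 with the leukocyte score as a covariate (adjusted p = 0.621 in MG-N and 0.442 for MG-NP). Without MG-N replicate 4, the highest, the MG-N estimate was 0.55 and its adjusted p 0.031, and it passed also without replicate 1 or without replicate 3 (1.09 and adjusted p = 0.048 in each). Over the 7 fits leaving out 1 library the adjusted p was 0.031 to 0.174. Without MG-NP replicates 2 and 4, the glands with the most muscle RNA, the MG-NP estimate was 2.43 (adjusted p = 0.000217). Those glands were also the lowest of their group in Pik3cd and in leukocyte score (8.19 and 9.4 against 10.9 and 11.19), so this fit kept the glands that were high in both.

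Inpp4b encodes a lipid phosphatase that removes a phosphate from an inositol bisphosphate lipid and so restrains AKT, and lies at chr8:81342556-82127914 (+ strand; ENSMUSG00000037940). It is the member that ends the signal, and its highest glands were those of Pik3cd. The order of the remaining glands differed: among the other MG-N glands, replicate 2 had the most Pik3cd (926) and the least Inpp4b (757). Its normalized counts were 758, 977 and 617 in MG-WT, 1085, 757, 947 and 1845.5 in MG-N, while MG-NP glands had 2204, 934, 1973.5 and 1180.2. In tumors they were 393, 336, 646 and 289 in T-N and 285, 355, 221 and 217 in T-NP. The highest glands were again MG-N replicate 4 and MG-NP replicates 1 and 3, and no tumor reached a gland of its own comparison. Inpp4b fell by 1.46 ± 0.33 on the log2 scale in T-N (SE; limma adjusted p = 0.00589), a fold of 2.76. It fell by 2.48 ± 0.30 in T-NP (adjusted p = 0.000235), a fold of 5.59. The difference between the genotypes in this fall was -1.02 ± 0.47 (unadjusted p = 0.0459, adjusted p = 0.613 in limma), so it was not established. Against MG-WT, MG-NP was higher by 0.94 ± 0.33 with an adjusted p of 0.0508, which passed without MG-NP replicate 2 (1.16, adjusted p = 0.0195) and ranged from 0.0195 to 0.165 without each library. The count tests on the recovered reads called it, with 1.02 and an adjusted p of 0.0353 in edgeR and 1.01 and 0.0121 in DESeq2, as did limma with all 5 groups in a single fit (adjusted p = 0.0331). The estimate was 0.44 with the leukocyte score as a covariate (adjusted p = 0.111), and with the replicate number as a block 1.05 (adjusted p = 0.0992).

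In tumors against their glands most leukocyte markers were lower, as both genes were. Of the 10 markers, 9 were lower in T-N than in MG-N and 7 were lower in T-NP than in MG-NP by the same test, and their summed level was 13031 to 31388 normalized counts in MG-N and 7197 to 35431 in MG-NP against 4904 to 10581 in T-N and 5181 to 7616 in T-NP. The part of leukocytes in the falls of Pik3cd and Inpp4b cannot be read from these values alone. Ptprc, which encodes the leukocyte surface protein CD45, was at 13006 normalized counts in MG-N replicate 4, 15527 in MG-NP replicate 1 and 14320 in MG-NP replicate 3, and between 1788.5 and 6807 in the other MMTV-neu glands. Those are the same glands that were highest in Pik3cd and Inpp4b. Of the B cell markers, Cd79a had no read in T-N replicate 2 and was at 2.27 to 58.6 in the other tumors. The leukocyte score was 6.55 to 8.67 in T-N against 8.93 to 10.83 in MG-N, and 6.66 to 7.97 in T-NP against 8.19 to 11.19 in MG-NP. Since these ranges do not overlap, fits with the score as a covariate cannot tell leukocyte content from group. With the leukocyte score as a covariate, an alternative chosen after the data were seen, Pik3cd was no longer called in either genotype, at -0.47 (adjusted p = 0.652) in T-N and -0.18 (adjusted p = 0.774) in T-NP. Inpp4b was not called in T-N (-0.05, adjusted p = 0.936) and was still called in T-NP (-1.45, adjusted p = 0.00959). Over the alternatives that left all libraries in, these were the highest values, and the lowest adjusted p was 0.000109 (T-N) and 8.63e-06 (T-NP) for Pik3cd and 0.000271 (T-N) and 1.03e-12 (T-NP) for Inpp4b. The genes most like Pik3cd over the 19 libraries were Pik3r5, Ccdc88b and Rac2 (Pearson r = 0.985, 0.977 and 0.975, among 13333 protein-coding genes), and those most like Inpp4b were Gimap8, Itga4 and Ptpn22 (0.971, 0.960 and 0.960). These correlations describe points that share tissue makeup within groups.

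**Figure D2:**
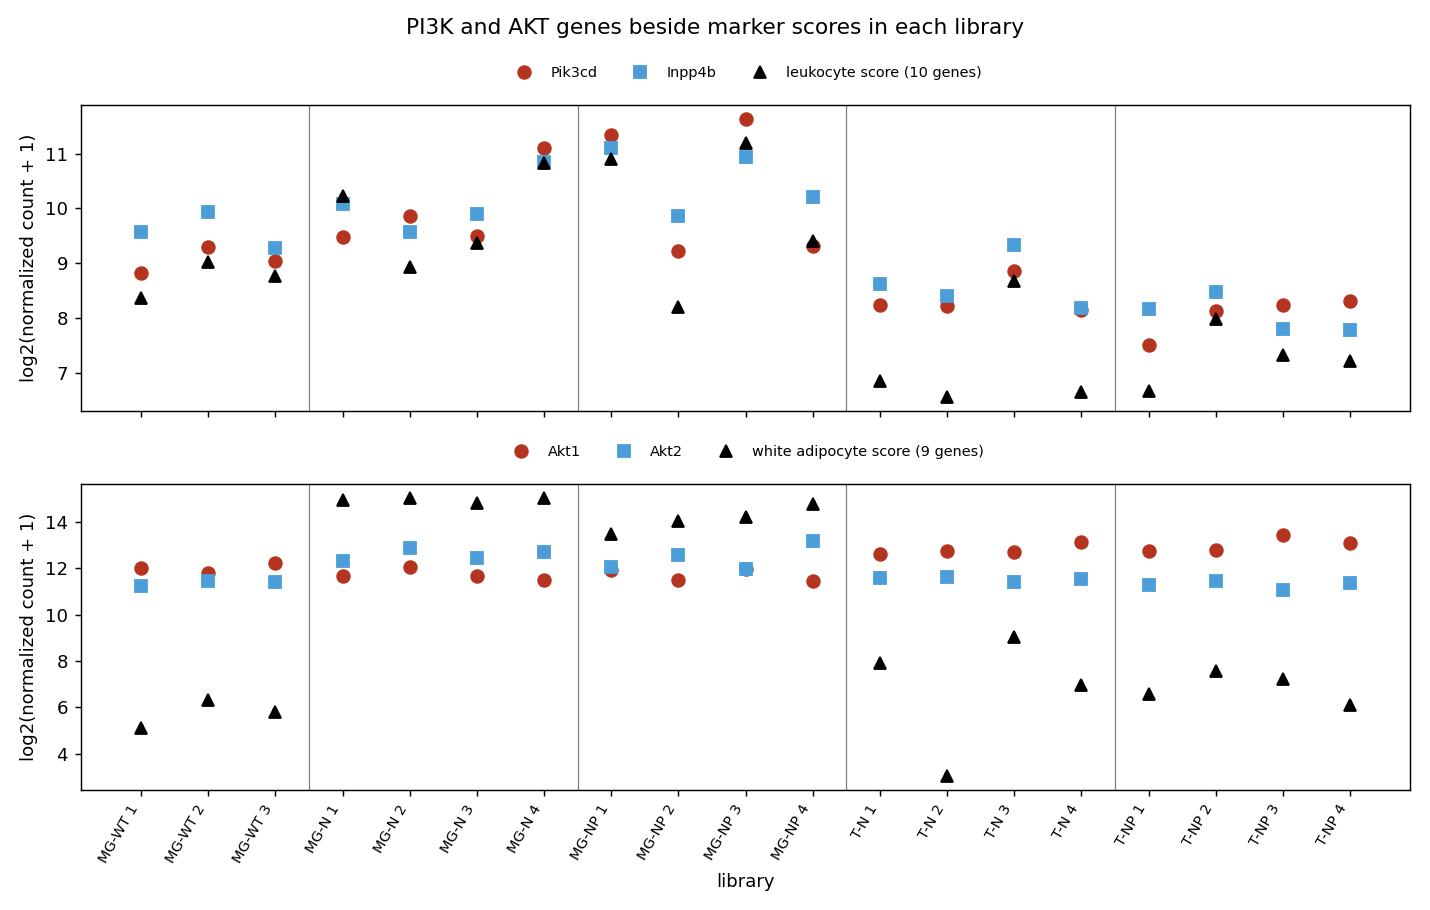
Upper panel: Pik3cd, Inpp4b and the leukocyte score in each of the 19 libraries; lower panel: Akt1, Akt2 and the white adipocyte score (y axes, log2(normalized count + 1); x axis, library by group and replicate). MG-N 4, MG-NP 1 and MG-NP 3 are the highest libraries for both Pik3cd and Inpp4b, and the white adipocyte score is 13.47 or above in the glands of MMTV-neu mice and 9.05 or below elsewhere.

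Because Pik3cd and Inpp4b shared their highest libraries and were both lower in tumors, the 250 bases before their RefSeq starts (GRCm38.p6) are shown. The Pik3cd sequence is chr4:149698709-149698958 (- strand), the most upstream of 3 starts in the table used, and the Inpp4b sequence is chr8:81342312-81342561 (+ strand). Capitals mark matches, on either strand, to any of 7 motifs. The general promoter motifs searched were GGGCGG, known as the GC box, and CCAAT, known as the CCAAT box. The motifs of named factor families were CACGTG for the basic helix-loop-helix proteins (E-box), TGANTCA for the dimers of Jun and Fos (AP-1), GTAAACA for the forkhead proteins that AKT inhibits (FoxO), CCGGAAGT for the family of ETS proteins and TGACGTCA for the cyclic AMP response factors (CRE). No motif contains another.
Pik3cd: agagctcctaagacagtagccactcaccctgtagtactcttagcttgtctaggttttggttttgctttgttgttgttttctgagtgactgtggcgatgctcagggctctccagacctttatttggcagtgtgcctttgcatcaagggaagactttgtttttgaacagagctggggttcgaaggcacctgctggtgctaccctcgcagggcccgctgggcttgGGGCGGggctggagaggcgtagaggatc
Inpp4b: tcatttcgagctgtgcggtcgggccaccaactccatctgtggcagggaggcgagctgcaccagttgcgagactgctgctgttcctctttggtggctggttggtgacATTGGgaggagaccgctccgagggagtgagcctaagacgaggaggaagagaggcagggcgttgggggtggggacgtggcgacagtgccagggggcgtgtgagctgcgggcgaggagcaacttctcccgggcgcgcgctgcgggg
The Pik3cd window held 1 GC box and the Inpp4b window 1 CCAAT box, read on the opposite strand, and no other motif of the 7. They thus shared no match. Among the 32851 windows of the same length, 32.7% hold a GC box and 33.8% a CCAAT box. The GC content was 53.6% and 66%, beside a median of 52.4%.

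Pik3r1 encodes p85α, the main regulatory subunit, which stabilizes the catalytic subunit and docks it to receptors, and lies at chr13:101680563-101768217 (- strand; ENSMUSG00000041417). Its normalized counts were 16795, 20649.7 and 13809 in MG-WT, 20101.5, 14450.2, 13305 and 11921 in MG-N, while MG-NP glands had 14991.5, 17471, 14114 and 13947. T-N tumors split into high and low libraries, with 19746, 7316.5, 19028 and 8517 in replicate order. T-NP tumors were at 21799, 20817, 17632 and 27592, all above all 4 MG-NP glands. The log2 difference was 0.52 ± 0.17 in T-NP against MG-NP (SE; limma adjusted p = 0.03). That call held in 2 of the 8 fits leaving out 1 library, with adjusted p from 0.0195 to 0.069, and was lost without MG-NP replicates 1, 3 or 4 or T-NP replicates 1, 2 or 4. The adjusted p was under 0.05 in 9 of the 14 other alternatives. The call was lost when T-NP replicates 1 and 2 were averaged as 1 sample (0.53, adjusted p = 0.0572, within 0.00509 to 0.412 over the alternatives). It was also lost with all 5 groups in a single fit (adjusted p = 0.119) and with the replicate number as a block. The muscle score (0.65, adjusted p = 0.146) or the leukocyte score (0.32, adjusted p = 0.412) as a covariate removed it as well. In T-N against MG-N the difference was -0.24 (95% interval -1.06 to 0.57), and between the tumor groups 0.81 (0.02 to 1.60; adjusted p = 0.682). No other subunit described here is as abundant: Pik3r1 made up 81.2% to 94.1% of the summed per-kilobase level of Pik3r1 and Pik3r3 in the group means. Its closest genes over the libraries were Btn1a1, Btn2a2 and Slc41a2 (r = 0.890, 0.852 and 0.840), of which Btn1a1 encodes butyrophilin, a protein of the milk fat globule.

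Pik3r3 encodes p55γ, a shorter regulatory subunit, and lies at chr4:116221618-116303056 (+ strand; ENSMUSG00000028698). Its normalized counts were 792, 610.13 and 814 in MG-WT, 805, 764, 645 and 563 in MG-N, while MG-NP glands had 511, 441, 544 and 465. They were 373, 1380.3, 1575 and 2084 in T-N and 1374.5, 962, 2518.5 and 1249.8 in T-NP. T-NP tumors exceeded all MG-NP glands by 1.55 ± 0.27 on the log2 scale (SE; limma adjusted p = 0.00155), a fold of 2.92, and the call held without each library in turn. Of the T-N tumors, 3 were above every MG-N gland while replicate 1 was below every gland. With it the estimate was 0.73 ± 0.48 (adjusted p = 0.229), and without it 1.27 (adjusted p = 0.0018, the lowest of the fits leaving out 1 library, which reached 0.474). Against MG-WT the tumors were at 0.80 (adjusted p = 0.14), and at 1.07 without T-N replicate 1 (adjusted p = 0.00466, the lowest of 11 such fits, which reached 0.324). DESeq2 called it with all libraries in (0.95, adjusted p = 0.0429) and edgeR did not (adjusted p = 0.0648). MG-NP was lower than MG-WT by 0.58 on the log2 scale (-0.58 ± 0.16, adjusted p = 0.0224), with no overlap. That call was lost without MG-WT replicate 1, MG-WT replicate 3 or MG-NP replicate 2 (adjusted p from 0.0526 to 0.0919) and held in the other 4 fits. It was also lost with the muscle score as a covariate (-0.18, adjusted p = 0.792), with all 5 groups in a single fit (adjusted p = 0.269), with the replicate number as a block (0.0555) and without MG-NP replicates 2 and 4 (-0.47, adjusted p = 0.0609). Pik3r3 was also the single member whose MG-NP and MG-N values did not overlap (-0.49 ± 0.15, unadjusted p = 0.0111, adjusted p = 0.339), where 6.21% of all genes did not overlap. The genes most like it were Cald1, Rflna and Hs3st1 (r = 0.882, 0.869 and 0.860).

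Akt1 and Akt2 encode closely related kinases: Akt1 is tied to growth and survival, and Akt2 to the response of fat, muscle and liver to insulin. Akt1 lies at chr12:112653821-112674884 (- strand; ENSMUSG00000001729) and Akt2 at chr7:27591552-27640826 (+ strand; ENSMUSG00000004056). Since the pair moved in opposite directions, the 250 bases before their starts are shown in the same way, at chr12:112674885-112675134 (- strand, the most upstream of 2 RefSeq starts) and chr7:27591302-27591551 (+ strand, the most upstream of 4).
Akt1: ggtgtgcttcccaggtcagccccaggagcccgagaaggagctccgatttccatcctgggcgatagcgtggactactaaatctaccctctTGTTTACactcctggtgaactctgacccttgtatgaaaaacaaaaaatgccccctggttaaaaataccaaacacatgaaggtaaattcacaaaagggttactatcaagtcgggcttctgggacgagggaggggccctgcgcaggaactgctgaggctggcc
Akt2: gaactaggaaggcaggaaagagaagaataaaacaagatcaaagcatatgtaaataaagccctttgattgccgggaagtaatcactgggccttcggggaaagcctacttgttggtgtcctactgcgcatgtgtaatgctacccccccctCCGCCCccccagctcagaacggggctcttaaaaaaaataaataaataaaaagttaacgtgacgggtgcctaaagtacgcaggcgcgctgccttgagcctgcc
The Akt1 window held 1 FoxO match on the opposite strand, which 3.17% of all windows hold, and the Akt2 window 1 GC box on the opposite strand. The other motifs had no match in either window. The GC content of 52% and 48.8% was near the median of all windows.

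Akt1 had 4137, 3603 and 4859 normalized counts in MG-WT, 3247, 4266, 3219 and 2847 in MG-N, while MG-NP glands had 3837, 2875, 3963 and 2767. It had 6281, 6952, 6721 and 9097 in T-N and 6947, 7109.5, 10957 and 8583 in T-NP, so that every tumor was above every gland. The log2 difference was 1.10 ± 0.17 in T-N against MG-N (SE; limma adjusted p = 0.00108), a fold of 2.14. It was 1.32 ± 0.19 in T-NP against MG-NP (adjusted p = 0.000642), a fold of 2.49. Against MG-WT the mean of the tumor groups was higher by 0.89 ± 0.17 (adjusted p = 0.000882). All 3 calls held without each library in turn. With the leukocyte score as a covariate the T-N call was lost (0.71, adjusted p = 0.214, the highest over the alternatives, from 1.24e-07) and the T-NP call held (1.73, adjusted p = 0.00369, within 4.8e-08 to 0.0345). Leukocyte scores of tumors and their glands do not overlap, so these fits cannot tell leukocyte content from group. The luminal score was 11.84 to 12.67 in tumors, 9.18 to 10.98 in the MMTV-neu glands and 12.74 to 13.02 in MG-WT, and its part in the Akt1 differences was not tested. Neither MG-N (-0.31, 95% interval -0.69 to 0.06) nor MG-NP (-0.33, -0.76 to 0.10) differed detectably from MG-WT, with 2 exceptions. Without MG-N replicate 2 the MG-N estimate was -0.43 (adjusted p = 0.0296, the lowest of 7 such fits, which reached 0.378). The MG-NP estimate was -0.52 with the leukocyte score as a covariate (adjusted p = 0.0426, the lowest of the alternatives, which reached 0.625). The genes most like Akt1 were Srsf9, Eif4a3 and Eif4h (r = 0.965, 0.961 and 0.960), which encode a splicing factor, a helicase of the exon junction complex and a translation factor.

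Akt2 had 2429.6, 2760.2 and 2741 normalized counts in MG-WT, 5050.2, 7542, 5482 and 6579.9 in MG-N, while MG-NP glands had 4241, 6018, 4055 and 9299. It had 3046, 3155, 2688 and 2966 in T-N and 2495, 2815.5, 2127.5 and 2634 in T-NP. All 8 MMTV-neu glands were above every MG-WT gland and above every tumor. Akt2 was higher than in MG-WT by 1.21 ± 0.15 in MG-N (SE; limma adjusted p = 0.000295), a fold of 2.31. In MG-NP it was higher by 1.08 ± 0.29 (adjusted p = 0.0192). In tumors it fell by 1.04 ± 0.15 against MG-N (adjusted p = 0.000764) and by 1.15 ± 0.26 against MG-NP (adjusted p = 0.00535). Tumors and MG-WT differed by 0.04, with a 95% interval of -0.20 to 0.29. The calls held without each library except in MG-NP against MG-WT, where leaving out any of the 3 MG-WT libraries gave an adjusted p of 0.0551 to 0.0716. With the leukocyte score as a covariate Akt2 was at -1.29 in T-N (adjusted p = 0.0518, the highest of the alternatives, from 3.34e-09) and was still called in T-NP (-1.72, adjusted p = 0.0114).

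The groups with high Akt2 were those with fat. The white adipocyte markers, 9 of 9 of them higher in MG-N and MG-NP than in MG-WT and 9 of 9 lower in either tumor group than in its glands, summed to 338791 to 476296 normalized counts in MG-N and 168057 to 419070 in MG-NP. They summed to 2259 to 3392 in MG-WT, 647 to 7898 in T-N and 1134 to 2818 in T-NP. Since the scores of these groups do not overlap, fat content and group cannot be told apart for Akt2 in these comparisons. The MG-NP gland with the most Akt2, replicate 4, also had the highest white adipocyte score (14.78) and the highest brown adipocyte score (12.92) of its group, and a muscle share of 4.73%. Akt2 and the white adipocyte score ranked the glands alike only in part. In MG-N, replicates 2 and 4 had the highest score (15.04 in each) and the most Akt2 (7542 and 6580). Replicate 1 of MG-N had a higher score than replicate 3 (14.93 against 14.81) and less Akt2 (5050 against 5482). MG-NP replicate 3 had a higher score than replicate 2 (14.23 against 14.04) and less Akt2 (4055 against 6018). The muscle share was 0.0535% in that replicate 3 and 8.6% in that replicate 2. The part of fat in these ranks was not tested. The MG-N glands had scores of 14.81 to 15.04 and Akt2 of 5050 to 7542, against 9299 in MG-NP replicate 4. The muscle scores of MG-NP overlapped with neither MG-WT nor T-NP, so fits with that score cannot tell muscle from group. With the skeletal muscle score as a covariate Akt2 was not called in MG-NP against MG-WT (-0.14, adjusted p = 0.897) or in T-NP against MG-NP (-0.64, adjusted p = 0.266). Without MG-NP replicates 2 and 4 it was called in both (0.65, adjusted p = 0.00532, and -0.73, adjusted p = 0.00457). Over the alternatives the adjusted p ran from 0.000816 to 0.897 and from 0.000115 to 0.266. The genes most like Akt2 were Dtnbp1, Pcca and Grina (r = 0.957, 0.952 and 0.945), of which Pcca encodes a subunit of the mitochondrial propionyl-CoA carboxylase.

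**Figure D3:**
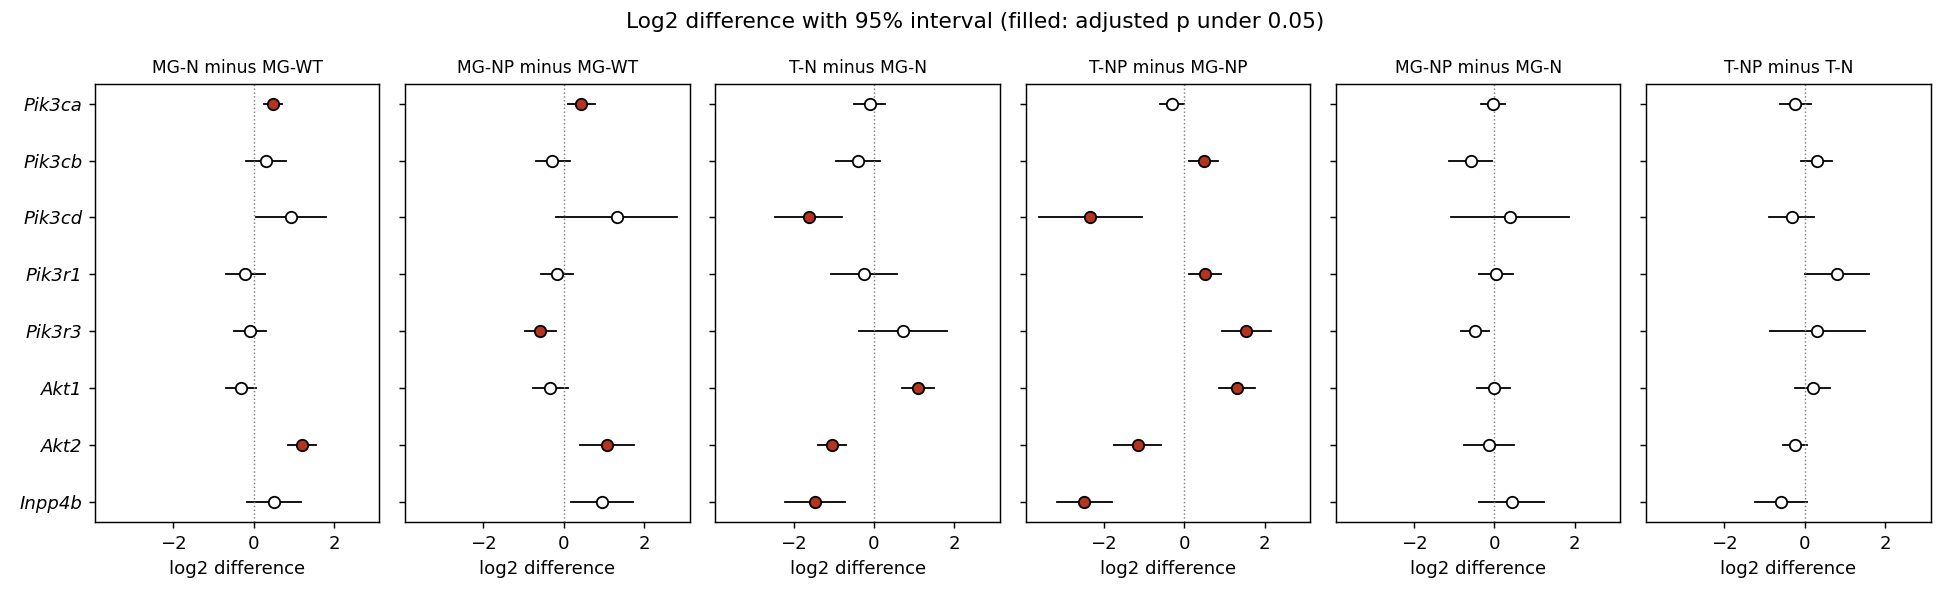
Log2 difference between groups (x axis, log2(normalized count + 1) scale) for the 8 genes (y axis) in 6 comparisons; points are limma estimates, lines 95% intervals, and filled points have an adjusted p under 0.05. Akt1 lies to the right and Akt2, Pik3cd and Inpp4b to the left of 0 in tumors against glands of both genotypes, and the panels that compare the genotypes hold no filled point.

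Ratios of 2 genes within a library do not depend on how libraries were scaled. Log2(Akt1/Akt2) of normalized counts was 0.66 ± 0.24 in the 3 MG-WT glands (SD), -0.86 ± 0.25 in MG-N, -0.75 ± 0.81 in MG-NP, 1.28 ± 0.25 in T-N and 1.72 ± 0.46 in T-NP (SD, n = 4 each). Every MMTV-neu gland had a ratio below 0 and every tumor a ratio of at least 1.04. Per kilobase, Akt1 made up 73.2% ± 3.32 of the summed level of Akt1 and Akt2 in MG-WT, 49% ± 4.24 in MG-N, 50.9% ± 13.7 in MG-NP, 80.8% ± 2.64 in T-N and 84.8% ± 3.72 in T-NP. The difference in the log2 ratio was 2.14 in T-N against MG-N and 2.47 in T-NP against MG-NP, each with a two-sided exact permutation p of 0.0286, the smallest that 4 against 4 allows. Over the 12 ratio tests the Benjamini-Hochberg adjusted p was 0.0686, and 0.0571 is the lowest that these group sizes allow over the 12, so no ratio could pass 0.05 after adjustment. Against MG-WT the ratio was lower by 1.52 in MG-N and by 1.41 in MG-NP without overlap (exact p = 0.0571, the smallest that 3 against 4 allows, adjusted 0.0762).

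Among catalytic subunits, Pik3cd made up 13.8% ± 1.84 of the summed per-kilobase level of Pik3ca, Pik3cb and Pik3cd in MG-WT, 19.7% ± 9.56 in MG-N and 29.6% ± 19.7 in MG-NP. In tumors its share was 7.93% ± 1.01 (T-N) and 6.67% ± 1.5 (T-NP). Log2(Pik3cd/Pik3ca) differed by -1.51 between T-N and MG-N and by -2.03 between T-NP and MG-NP (exact permutation p = 0.0286, adjusted 0.0686 in each), with no overlap. Log2(Pik3r1/Pik3ca), the balance of the main regulatory and catalytic subunits, was 2.88 ± 0.32 in T-NP against 2.06 ± 0.24 in MG-NP (difference 0.83, exact permutation p = 0.0286, adjusted 0.0686). In T-N it was 1.84 ± 0.87 against 1.97 ± 0.29 in MG-N (exact permutation p = 0.8), with T-N values spread from 0.77 to 2.81. It was 2.66 ± 0.28 in MG-WT, higher than in MG-N by a difference of 0.68 and than in MG-NP by one of 0.60 (-0.68 and -0.60 as MMTV-neu gland minus MG-WT, exact permutation p = 0.0571 in each).

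**Figure D4:**
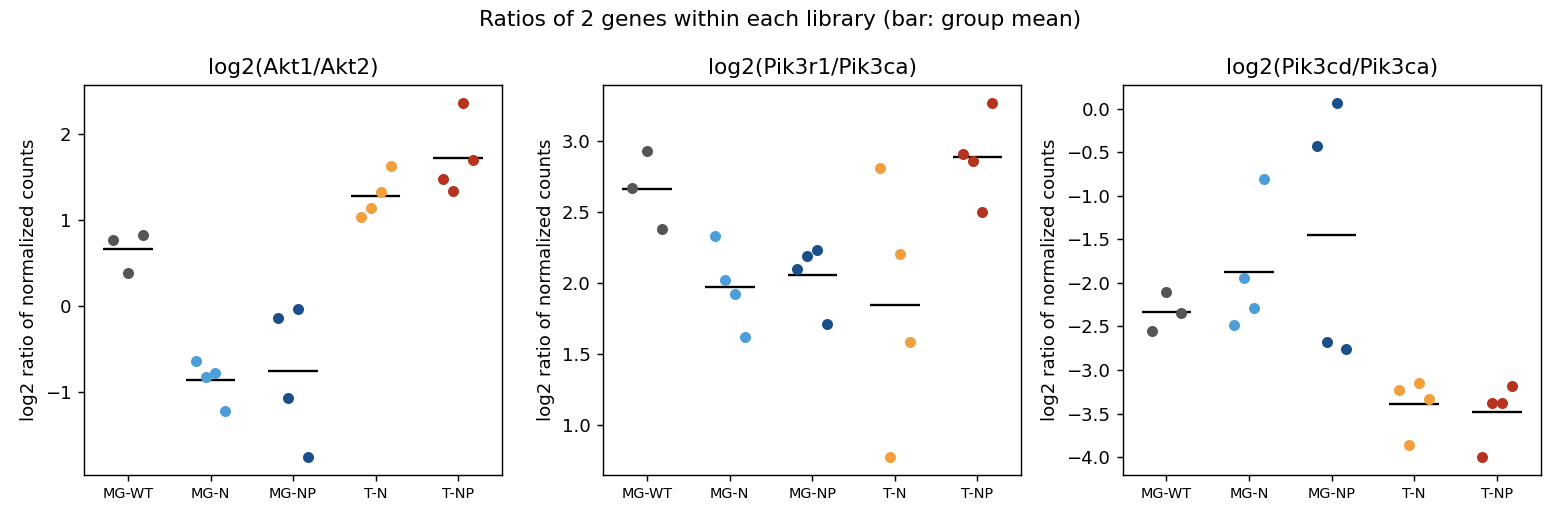
Log2 ratios of normalized counts within each library (y axes) for Akt1 over Akt2, Pik3r1 over Pik3ca and Pik3cd over Pik3ca in the 5 groups (x axis); points are libraries and bars group means. For Akt1 over Akt2 every tumor is at 1.04 or above and every MMTV-neu gland at -0.03 or below.

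The glands of the MMTV-neu groups, taken outside any lesion, were compared with those of wild type mice. In MG-N, 2 of the 8 genes were higher (Pik3ca and Akt2) and 0 lower, where 30% of 19017 genes were higher and 29.2% lower. In MG-NP, 2 were higher (the same genes) and 1 lower (Pik3r3), where 22.4% of 19065 genes were higher and 24% lower. These comparisons share the MG-WT libraries. The share of members called was 25% in MG-N and 37.5% in MG-NP, beside 59.1% and 46.4% of all genes in either direction. With 8 genes no more can be read from these counts. For the count of 0 lower members in MG-N, 3 members had an unadjusted p under 0.05 in either direction, and edgeR and DESeq2 also called 0 lower. Values lay fully apart for 3 of the 8 in each comparison, against 61.3% and 54.4% of all genes. Akt2 was the single member called at 2-fold or more in each (19.1% of all genes higher and 17.9% lower in MG-N, with 16.4% and 16.2% for MG-NP). The mean of both tumor groups had 1 member higher (Akt1) and 2 lower (Pik3cd, -0.85 ± 0.22, adjusted p = 0.0052; Inpp4b, -1.25 ± 0.26, adjusted p = 0.00135; limma, SE) than MG-WT, where 30.4% of 18735 genes were higher and 34.4% lower (64.8% in either direction). At 2-fold or more Inpp4b alone was called (18.9% of all genes higher, 26.7% lower). The 10 leukocyte markers were split in this comparison, with 4 higher and 5 lower in tumors than in MG-WT. With the leukocyte score as a covariate neither Pik3cd (-0.30, adjusted p = 0.327) nor Inpp4b (-0.61, adjusted p = 0.106) was called lower than MG-WT, each the highest adjusted p of its alternatives (from 0.000431 and 2.43e-05), and Pik3cd was not called with all 5 groups in a single fit (adjusted p = 0.111).

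Glands with mutant and wild type p53 in fibroblasts were compared to ask what the mutant changes in the gland and the tumor. None of the 8 genes was called in MG-NP against MG-N by limma, where 0% of 18563 genes were, and edgeR and DESeq2 called 0 of the 8 too (limma had 1950 genes under an unadjusted p of 0.05, and over all genes edgeR called 0 and DESeq2 730). The unadjusted limma p was under 0.05 for 2 of them, Pik3r3 and Pik3cb (-0.59 ± 0.23, limma adjusted p = 0.419). In T-NP against T-N 0 of the 8 were called by limma, edgeR or DESeq2, where limma called 0.0421% of 16638 genes (0.0361% higher and 0.00601% lower, with the same shares at 2-fold or more), and the groups overlapped for each member (4.21% of all genes did not overlap). The unadjusted limma p was under 0.05 for 1, Pik3r1 (limma adjusted p = 0.682). The interaction of tumor and genotype called 0 of 8 by all of these tools (0% of 19367 genes by limma), with 2 members, Pik3cb and Inpp4b, under an unadjusted p of 0.05. The interaction rests in part on T-N against MG-N, where most glands differed from the tumors in Fsp-Cre and p53wm-R172H. The intervals leave room for changes of moderate size: for Akt1 the difference between tumor groups was 0.20 (95% interval -0.23 to 0.63), for Akt2 -0.24 (-0.53 to 0.05) and for Inpp4b -0.59 (-1.23 to 0.06).

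The surrounding pathway was described with a list of 60 further genes. In T-N against MG-N 16 of the 60 were higher and 14 lower, with a median log2 difference of 0.05. In T-NP against MG-NP 19 were higher and 14 lower, with a median of 0.01. The share called (50% and 55%) was near that of all genes (51.3% and 55.5%). Class II and III PI3K genes, which make other inositol lipids for membrane traffic and autophagy, were higher for 2 of 5 in T-N (Pik3c2a 0.81 and Pik3c2b 1.38, named after their values were seen) and for 4 of 5 in T-NP, and the fifth was not called. Of 6 other class I subunits and adaptors, 1 was higher and 2 lower in T-N and 3 and 2 in T-NP. Pik3r5 (-2.18 in T-N, -2.51 in T-NP) and Pik3r6 (-3.07 and -2.66), which encode the adaptors of p110γ in leukocytes, fell in both. Pik3cg, which encodes p110γ itself, rose in T-NP against MG-NP (2.47 ± 0.43, SE; limma adjusted p = 0.00146), from a mean of 973 to 4866 normalized counts, where 7 of 10 leukocyte markers were lower.

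Of the 12 regulators of AKT, 4 were higher and 3 lower in T-N, and 5 higher and 2 lower in T-NP, a share called of 58.3% in each beside 51.3% and 55.5% of all genes. The counts of the other groups are read against the same shares of all genes. The largest rises were those of Trib3 (3.51 ± 0.32 in T-N and 3.58 ± 0.29 in T-NP; limma adjusted p = 0.00012 and 3.51e-05), a stress-induced pseudokinase that binds AKT, and of its relative Trib1 (2.44 and 2.30). Of 15 AKT substrates and mTORC1 genes, 5 were higher and 3 lower in T-N and 2 and 3 in T-NP. Of 8 FoxO target genes, which are expressed when AKT is inactive, 2 were higher and 2 lower in T-N and 1 and 3 in T-NP. They did not move together: Pdk4, a brake on glucose oxidation, fell by 4.55 in T-N and by 7.19 in T-NP on the log2 scale, while Fbxo32, which encodes the ubiquitin ligase atrogin-1, rose by 2.16 in T-N. Trim63, which encodes a muscle ubiquitin ligase, fell by 7.71 in T-NP, where 12 of 12 skeletal muscle markers were lower. The part of muscle in that fall was not tested. Of 7 receptor substrates and docking proteins, 2 were lower in T-N, and 2 were higher and 1 lower in T-NP. Of 7 inositol lipid phosphatases 2 were higher and 2 lower in T-N and 2 and 3 in T-NP.

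In the glands against MG-WT more genes of the list were called lower than higher, where all genes were near evenly split (30% higher and 29.2% lower in MG-N, 22.4% and 24% for MG-NP). In MG-N 8 genes were higher and 25 lower (median -0.20), and in MG-NP 6 were higher and 18 lower (median -0.13), beside medians of 0.02 over all genes in both. The share of the list called was 55% and 40%, beside 59.1% and 46.4% of all genes. Eif4ebp1, the translation repressor that mTORC1 releases, rose by 2.73 ± 0.13 in MG-N and by 2.53 ± 0.29 in MG-NP (limma adjusted p = 3.01e-06 and 0.000674). Pik3r6 rose by 2.16 and 1.79. Grb10, an adaptor that dampens insulin receptor signaling, rose by 1.81 in MG-N, and Trim63 rose by 8.09 in MG-NP, where 12 of 12 muscle markers were higher. The largest falls in both were those of Trib1 (-3.68 and -3.48), Irs2 (-2.68 and -2.53) and Gab1 (-1.96 and -1.89), of which Irs2 and Gab1 dock PI3K to receptors. In these comparisons 9 of 9 luminal and 8 of 8 basal epithelial markers were lower and 9 of 9 white adipocyte markers higher, and tissue makeup and group cannot be told apart. Tumors against MG-WT had 13 of 59 tested list genes higher and 23 lower (61% called, beside 64.8% of all genes), with Trib3 (3.32), Pik3cg (1.85) and Eif4ebp1 (1.52) rising most and Pdk4 (-6.65), Foxo1 (-2.09) and Gab1 (-1.79) falling most. In MG-NP against MG-N limma and edgeR called 0 of the 60 list genes and DESeq2 called 5 as higher, and 8 had an unadjusted limma p under 0.05. In T-NP against T-N all of these tools called 0 of 59, and 4 had an unadjusted limma p under 0.05.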

How the data were processed

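RNA-seq libraries of 19 mouse mammary glands and tumors were sequenced by the authors as paired reads and aligned to GRCm38 (mm10) with TopHat2 2.1.1 and Bowtie2; the counting tool, its annotation and its use of strand are not given in the sources used here, and the sources disagree on the library kit (poly(A) mRNA or stranded total RNA). The authors deposited 1 table of counts divided by DESeq2 size factors, a signal with no depth of its own. Dividing each column by its smallest step gave whole reads (tolerance 0.05) for 100% of values, from which depth was taken. Symbols and positions came from GENCODE release M21 of the same build, which held 97.97% of the 46078 identifiers. Groups followed the labels.

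Differences were tested with limma 3.58.1 (R 4.3.3; empirical Bayes with trend) on log2(normalized count + 1) in the groups compared, over genes with at least 10 normalized counts in as many libraries as the smaller group holds, with Benjamini-Hochberg adjustment over all genes tested and a threshold of 0.05. Fold changes are on that scale and understate changes of low genes. Levels per kilobase used merged exons. The 12 ratio comparisons used exact two-sided permutation tests (SciPy 1.17.1) with adjustment over the 12. Read counts were tested with edgeR 4.0.16 and DESeq2 1.42.0 as alternatives, beside other pseudocounts (0.5 and 5), filters, TMM scaling, all 5 groups in a single fit, a replicate block, marker scores as covariates, averaged T-NP replicates 1 and 2, a 2-fold minimum and each library left out. The steps were tested on simulated data.

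The members and lists were chosen with earlier results of these data known. Named genes were the 8 members, Trp53 and Erbb2, the 3 largest called rises and falls of the list of 60 pathway genes in each comparison, and the 3 genes of highest Pearson correlation with each member. Adipoq, Ptprc and Cd79a, as markers, and Pik3c2a and Pik3c2b were named outside this rule, after their values were seen. Some genes of that list are not reported here by name. Promoter windows came from RefSeq (GRCm38.p6). Overlapping genes on the same strand, of at most 164.4 normalized counts in Pik3ca and 572.4 in Pik3r1, could share reads with these members.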

Additional observations from a re-analysis of the deposited data

Results flagged for a closer look

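Among the 32 groups of 4 libraries, in which each of the 8 genes was examined for a single library far from the rest (Dixon's criterion at the 95% level, on log2(normalized count + 1)), 2 were past it, and chance would give about 1 in 20. Pik3cd in T-N replicate 3 was at 464.53 normalized counts, with a gap to the next library of 0.887 of the group's range on that scale. Its leukocyte score was 8.67 against 6.55 to 6.84 in the other T-N tumors. Pik3ca in T-NP replicate 3 was at 3119.9 normalized counts, with a gap of 0.831 of the log2 range. The other T-NP tumors were at 2860.4, 2876.5 and 2902.7. On the scale of normalized counts 3 groups would be past the criterion, with gaps of 0.91 and 0.837 for the libraries above and of 0.859 for Pik3cd in MG-N replicate 4.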

How the results depend on the processing

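Among the member differences refitted with other settings, the fits leaving out 1 library apart, 732 kept their direction and their side of the threshold. A further 31 lost a call with the same sign, 15 gained one and 22 changed sign. Fits that changed sign and also lost a call are counted only among the sign changes. Of the 31, 7 were lost by the 2-fold minimum. With pseudocounts of 0.5 or 5 or a mean of at least 50 normalized counts as the filter, no count moved by over 1.5 times and no member gained or lost its call. With no filter, 1 member was higher in MG-NP against MG-WT. TMM scaling and edgeR moved no count by over 1.5 times. DESeq2 gave 4 members higher in MG-NP against MG-WT, 2 higher in tumors against MG-WT and 5 pathway list genes higher in MG-NP against MG-N. The log2 difference of Akt1 between MG-NP and MG-N changed sign to 0.01 with TMM, edgeR and DESeq2, and that of Pik3r1 between tumors and MG-WT to 0.01, 0.06 and 0.01. With all 5 groups in a single fit, MG-NP against MG-WT had 4 members higher and 0 lower, and 1 was lower in tumors against MG-WT.

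With a 2-fold minimum, members called higher were 1 in MG-N and 1 in MG-NP against MG-WT, 2 in T-NP against MG-NP and 0 in tumors against MG-WT, and members called lower were 0 in MG-NP and 1 in tumors against MG-WT. List genes were then 5 higher with 13 lower in MG-N against MG-WT, 10 lower in MG-NP against MG-WT, 7 higher in T-N against MG-N, 10 higher with 8 lower in T-NP against MG-NP, and 9 lower in tumors against MG-WT.

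With the skeletal muscle score as a covariate, MG-NP against MG-WT had 1 member higher and 0 lower, with 1 list gene higher and 4 lower, and T-NP against MG-NP had 2 members higher, with 9 list genes higher and 5 lower. Signs then turned for Pik3ca (-0.16), Akt1 (0.39) and Akt2 (-0.14) in MG-NP against MG-WT, for Pik3r1 (-0.22) and Akt1 (0.09) in MG-NP against MG-N and for the Akt2 interaction (0.04). The muscle scores of MG-NP overlapped with neither MG-WT nor T-NP, so the fits of those comparisons cannot tell muscle from group. With the leukocyte score as a covariate, an alternative chosen after seeing the data, 0 members were higher and 0 lower in T-N against MG-N, 2 were higher in T-NP against MG-NP, 2 lower in MG-NP against MG-WT and 0 lower in tumors against MG-WT. List genes were 5 higher in MG-N and 11 higher in MG-NP against MG-WT, 3 higher and 2 lower in T-N against MG-N and 15 lower in tumors against MG-WT. Signs turned for Pik3r3 (0.09) and Inpp4b (-0.15) in MG-N against MG-WT, for Pik3ca (0.21), Pik3cb (0.20) and Pik3r1 (0.49) in T-N against MG-N and for Pik3r1 (0.48) in tumors against MG-WT. Leukocyte scores of tumors and their glands did not overlap, so the fits of those comparisons cannot tell leukocyte content from group. Without MG-NP replicates 2 and 4, also chosen after seeing the data, signs turned for Pik3r1 (-0.01) and Akt1 (0.22) in MG-NP against MG-N and for the interactions of Akt1 (-0.02) and Akt2 (0.31). With T-NP replicates 1 and 2 averaged, 2 members were higher in T-NP against MG-NP. The cause of these changes was not tested.

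With the replicate number as a block, MG-NP against MG-WT had 1 member higher and 0 lower, and T-NP against MG-NP had 3 higher and 3 lower. No comparison had a correlation over 0.1 in every pair of same-numbered libraries (correlations of -0.25 to 0.33), and at most 2 of 4 correlated best with their own number. With 3 or 4 libraries a group, this check cannot tell whether same-numbered libraries share more than a number.

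Leaving out each library in turn, members called higher were 2 to 3 in MG-N and 0 to 2 in MG-NP against MG-WT, 1 to 2 in T-N and 2 to 4 in T-NP against their glands and 1 to 2 in tumors against MG-WT. Members called lower were 0 to 1 in MG-N and 0 to 1 in MG-NP against MG-WT, 3 to 3 in T-N, 3 to 4 in T-NP and 2 to 2 in tumors against MG-WT. The 0 members called higher in MG-NP were found without any 1 of the MG-WT libraries, and the counts of T-NP fell to 2 without MG-NP replicates 1 or 3 or T-NP replicates 1, 2 or 4. Without T-N replicate 1, 2 members were higher in T-N and 2 in tumors. List genes called higher were 5 to 8 in MG-N against MG-WT and 0 to 1 in MG-NP against MG-N. Differences that changed sign in such fits ranged from -0.47 to 0.01 for Pik3r1 in T-N against MG-N. In MG-NP against MG-N they ranged from -0.12 to 0.05 for Pik3ca, -0.03 to 0.77 for Pik3cd, -0.06 to 0.19 for Pik3r1, -0.10 to 0.10 for Akt1 and -0.37 to 0.02 for Akt2. They ranged from -0.21 to 0.61 for Pik3r3 in T-NP against T-N, -0.19 to 0.10 for Pik3r1 and -0.01 to 0.08 for Akt2 in tumors against MG-WT, -0.26 to 0.13 for the Akt2 interaction and -0.46 to 0.22 for log2(Pik3r1/Pik3ca) in T-N against MG-N. With 3 or 4 libraries a group, small differences could not be told from the spread between libraries.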
